A study of Mus musculus with 4 samples.

Results

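Broad promoter domains are stretches of 5 kb or more at gene starts over which histone H3 trimethylated at lysine 4 (H3K4me3) was enriched in adult mouse hippocampus. They were formed from the list of replicated peaks by joining peaks at most 1 kb apart, and kept if they were at least 5000 bp long and came within 1 kb of the start site of a protein-coding transcript. The rule found 890 of 13898 promoter domains (6.4%). The domains were selected on their breadth in these lists, so breadth is given as a description and without a test. H3K4me3 was measured by chromatin immunoprecipitation and sequencing in frozen tissue of 2-month-old male B6CASTF1/J mice, an F1 hybrid of a laboratory strain and a wild-derived strain. Pool C and pool D each combined 7 tissue samples and gave 2 technical libraries, and 1 peak list was called per pool. No treatment, mutation or second tissue is named. The label calls the tissue layer of hippocampus without naming a layer.

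H3K4me3 is placed by SET1 and MLL methyltransferase complexes, which are drawn to unmethylated CpG islands, and in most genes it forms a short block just around the start site. In many tissues a minority of genes carries the mark far into the gene body, and such broad domains are known from genes of cell identity and from steadily transcribed genes. The hippocampus holds excitatory neurons of the cornu ammonis and dentate gyrus, interneurons, glia and vessels. In bulk tissue a mark in more cells and a stronger mark in each cell cannot be told apart.

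Promoter sequences of 4 broad domains are shown. Pou3f3, Epha4 and Grin2b were taken for the breadth of their domains, and Efna5 for its share of bases in CpG islands. Pou3f3 is a transcription factor, and Epha4 and Grin2b led the broadest domains with 1 gene among receptors and channels. Efna5 led the domain with the highest share of bases in CpG islands. Each runs 5′ to 3′ on the strand of the gene, from 250 bases before the start site through the first 50 bases of the transcript, and was read from the RefSeq copy of assembly GRCm38 (mm10). CpG dinucleotides are in capitals.
Pou3f3 (chr1:42695518-42695817, plus strand): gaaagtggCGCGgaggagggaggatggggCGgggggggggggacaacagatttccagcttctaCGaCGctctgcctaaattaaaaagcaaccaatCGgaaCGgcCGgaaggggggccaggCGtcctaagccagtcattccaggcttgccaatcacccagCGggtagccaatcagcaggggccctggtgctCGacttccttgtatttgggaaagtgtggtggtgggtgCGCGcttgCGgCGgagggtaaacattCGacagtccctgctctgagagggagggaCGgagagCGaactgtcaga
Epha4 (chr1:77515034-77515333, minus strand): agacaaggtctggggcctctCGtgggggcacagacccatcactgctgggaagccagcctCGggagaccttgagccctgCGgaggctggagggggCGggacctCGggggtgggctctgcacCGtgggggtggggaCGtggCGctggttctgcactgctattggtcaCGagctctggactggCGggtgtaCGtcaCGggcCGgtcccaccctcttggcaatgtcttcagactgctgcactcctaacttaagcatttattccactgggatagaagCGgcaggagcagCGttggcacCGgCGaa
Grin2b (chr6:136173076-136173375, minus strand): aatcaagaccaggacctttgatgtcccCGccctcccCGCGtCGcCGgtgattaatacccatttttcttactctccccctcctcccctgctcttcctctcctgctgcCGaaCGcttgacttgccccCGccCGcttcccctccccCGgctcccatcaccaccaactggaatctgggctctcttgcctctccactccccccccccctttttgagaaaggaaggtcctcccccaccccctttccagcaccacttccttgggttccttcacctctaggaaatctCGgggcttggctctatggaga
Efna5 (chr17:62881268-62881567, minus strand): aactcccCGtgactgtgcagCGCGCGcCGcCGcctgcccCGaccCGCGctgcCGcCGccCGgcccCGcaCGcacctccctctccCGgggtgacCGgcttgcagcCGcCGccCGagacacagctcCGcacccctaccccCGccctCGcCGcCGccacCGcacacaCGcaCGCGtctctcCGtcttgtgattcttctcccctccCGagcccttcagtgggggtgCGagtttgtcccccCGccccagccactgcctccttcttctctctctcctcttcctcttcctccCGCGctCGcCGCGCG
The Efna5 promoter held 38 CpG dinucleotides at a GC content of 73.3%. The Grin2b promoter held 11 CpG dinucleotides, the fewest of these 4, and Pou3f3 with 18 and Epha4 with 17 lay between. Efna5 was chosen for its island share, so its high CpG number follows in part from that choice. Over all broad domains the promoter of the lead gene, the coding gene whose start site lay nearest the summit of the strongest peak, held a median of 24 CpG dinucleotides, against 22 in the other 13008 promoter domains and 11 over all 21853 protein-coding genes.

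Short promoter motifs were counted on either strand, and the commonest stood at similar shares in both kinds of promoter domain. The GC box GGGCGG stood in 67.9% of broad-domain promoters, 65.8% of other marked promoters and 43.0% of promoters of all coding genes, and it was present in all 4 sequences shown. The CCAAT box CCAAT stood in 33.6% of broad-domain promoters, 34.5% of other marked promoters and 39.0% of all, and the TATA box TATAAA in 6.40% of broad-domain promoters, 5.89% of other marked promoters and 12.7% of all. The NRF1 motif was in 5 of 890 broad-domain promoters (0.562%), against 1.76% of other marked promoters and 1.22% of all. The cAMP response element TGACGTCA was in 3.26% of broad-domain promoters, against 3.04% of other marked promoters and 2.43% of all. The remaining motifs were each in under 4% of broad-domain promoters. They were the EGR site GCGTGGGCG (1.01%, against 1.21% of other marked promoters and 0.746% of all), the E-box CAGATGG (3.60%, against 3.35% of other marked promoters and 4.71% of all), the MEF2 site (0.112%, against 0.115% of other marked promoters and 0.133% of all), the SRF site (0.225%, against 0.0231% of other marked promoters and 0.0824% of all) and part of the REST site, TTCAGCACC (0.787%, against 0.392% of other marked promoters and 0.380% of all). The MEF2 and SRF shares rest on 1 and 2 broad-domain promoters. The GC box overlaps the EGR site in part of its letters, and a match is no evidence of binding.

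The peak lists limited what could be compared. The replicated list held 27063 peaks, the pool C list 34193 and the pool D list 24690, and the technical libraries of a pool share 1 list. How deeply each library was sequenced is unknown, no counting interval was given, and the part of depth in pool differences was not tested. The replicated list rests on the same reads as the pool lists, which are therefore no independent repeat. Of 23266 joined domains, 942 were at least 5 kb long, and 52 of these lay away from coding start sites and were not members. The labelled tissue was checked on marker genes. All 20 genes of the excitatory neuron list carried a promoter domain, as did all 20 each of the hippocampal field, astrocyte and oligodendrocyte lists and all 25 housekeeping genes, against 14169 of 21853 coding genes. Other lists were marked in part. Interneurons had 21 of 24 genes, oligodendrocyte precursors 13 of 14, endothelium 17 of 20 and mural and meningeal cells 14 of 18. Microglia had 9 of 20 and ependyma with choroid plexus 8 of 16. A promoter domain was found at 3 of 24 genes of other tissues and 3 of 1418 olfactory and vomeronasal receptor genes.

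The 890 domains covered 6.004 Mb, 17.4% of all promoter domain bases. Their breadth had a median of 6108.5 bp (quartiles 5442.25 and 7165 bp), against 2045 bp in the other promoter domains, and ranged from 5001 to 22643 bp. Around the threshold the domains formed a continuum. Just inside it lay Cacna2d3 (5001 bp), a calcium channel auxiliary subunit, Egr1 (5005 bp), an activity-induced zinc finger factor, and Nsmf (5006 bp), a synapse-to-nucleus messenger. Just outside lay Dnaja1 (4997 bp), a chaperone partner, Camk2n1 (4995 bp), an inhibitor of CaM kinase II, and Rnd2 (4994 bp), a small GTPase. Camk2n1 was 5954 bp broad in pool C and 4736 bp in pool D, and Cacna2d3 5077 bp in pool C and 4505 bp in pool D. Members and non-members at the threshold thus differed less from each other than the pools did.

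Gap closing shaped part of the set. A single peak made up 347 of the domains, and 308 were joined from 2 peaks, 151 from 3, 61 from 4, 14 from 5 and 9 from more than 5. In 530 domains 1 peak alone reached 5 kb. In the 543 domains of several peaks the gaps summed to a median of 320 bp, or 4.98% of the domain. Nr2f2, which encodes the nuclear receptor COUP-TFII of interneurons from the caudal ganglionic eminence, was joined from 10 peaks into 17900 bp, and its longest single peak was 3567 bp. Pou3f3 and Prox1, homeobox factors of upper-layer neurons and of dentate granule cells, were joined from 8 peaks each and had longest peaks of 5613 and 4079 bp. By contrast the domain of Bcl6, a transcriptional repressor, and the predicted gene Gm37419 was 1 unbroken peak of 11085 bp. Irs2, an insulin receptor substrate, was 1 peak of 10921 bp, and Gria2, an AMPA receptor subunit, 1 peak of 10487 bp.

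Ranks 21 to 40 by breadth held transcription factors, chromatin regulators, synaptic proteins and signalling genes, from 12963 to 10921 bp. Tcf4, a basic helix-loop-helix factor, led 2 of them. Its domain of rank 21 was 12963 bp, with 12965 bp in pool C and 9965 bp in pool D. Its domain of rank 30 was 12122 bp, with 23270 bp in pool C and 8900 bp in pool D. The first was nearly equal in the replicated and pool C lists, and the second was far broader in pool C. Pool C also ran well beyond the replicated domain at Bcl11a, a zinc finger factor (chr11:24073447-24086369), with 24131 bp, against 11248 bp in pool D. Nfix, a nuclear factor I protein, had 18731 bp in pool C and 11083 bp in pool D. Nr2f1, the COUP-TFI receptor (chr13:78192136-78204592), had 15247 bp in pool C and 11523 bp in pool D.

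Other domains of these ranks were alike in both pools. Dlg4, the main scaffold of the postsynaptic density (chr11:70017713-70030061), spanned 12380 bp in pool C and 12220 bp in pool D, although 4 peaks were joined and the longest was 4716 bp. Lmo4, a LIM-domain cofactor, spanned 11327 bp in pool C and 11128 bp in pool D. Kdm6b, a histone H3 lysine 27 demethylase (chr11:69407982-69420657), spanned 13233 bp in pool C and 12644 bp in pool D. In these 3 domains pool C exceeded pool D by less than 1.05-fold. Bahcc1, a chromatin-binding protein, and Irs2 were close to this, the first with 12998 bp in pool C and 12220 bp in pool D, the second with 11561 bp in pool C and 10825 bp in pool D. The predicted Gm37419 with Bcl6 was less alike, with 12278 bp in pool C and 10189 bp in pool D (ratio 1.205).

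Sema7a, a membrane-anchored semaphorin, was the only domain of ranks 21 to 40 under 5 kb in pool D, with 13689 bp in pool C and 4782 bp in pool D, where it was split. Thra, the thyroid hormone receptor alpha, had 12024 bp in pool C and 5537 bp in pool D. Fat4, an atypical cadherin, had 12144 bp in pool C and 6347 bp in pool D. All 3 were joined from several peaks and lay in 2 separate domains in the pool D list. So did Baiap2, a postsynaptic actin regulator, with 12297 bp in pool C and 7552 bp in pool D. The remaining domains stood between these cases. Cacng8, the AMPA receptor auxiliary subunit gamma-8, had 13346 bp in pool C and 10517 bp in pool D. Atp1b1, a sodium pump subunit, had 13512 bp in pool C and 11722 bp in pool D. Enc1, an actin-binding kelch protein of neurons, had 13364 bp in pool C and 10762 bp in pool D. Ywhaz, an adaptor that binds phosphorylated proteins, had 11397 bp in pool C and 8857 bp in pool D. Grin2a, an NMDA receptor subunit, had 11039 bp in pool C and 9599 bp in pool D. All 5 were wider in pool C and above 8 kb in both pools.

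**Figure D1:**
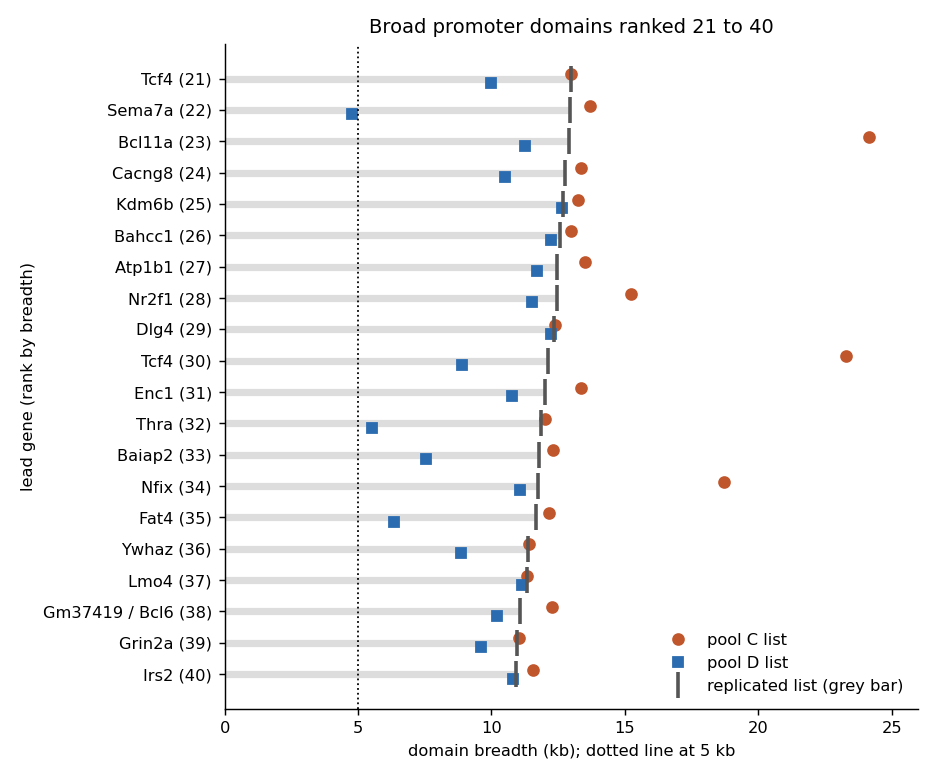
Breadth in kb of the promoter domains ranked 21 to 40, by lead gene. The grey bar ends at the breadth in the replicated list, circles give pool C and squares pool D. All but Sema7a were over 5 kb in both pools, and Bcl11a and the second Tcf4 domain exceeded 23 kb in pool C.

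The 890 domains held start sites of 983 protein-coding genes, 4.5% of the 21853 annotated and 6.94% of the 14169 with any promoter domain (marked genes). That last share is the background for every class below. Of the 982 gene symbols, 483 fell in at least 1 of the gene classes and 499 in none. In pool D, 658 of the 982 (67.0%) were 5 kb or more, the share to set beside class counts in pool D. Those counts come from the reads on which the rule chose. Gene classes were taken from naming patterns and marker lists, chosen with earlier results of these data known, and shares are over marked genes.

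Transcription factors were in broad domains at 133 of 992 marked genes (13.4%), but families differed widely. The KLF, SP and EGR zinc fingers had 9 of 27 (33.3%), led by Klf9, a glucocorticoid- and thyroid-responsive factor (8344 bp), Egr3 (7132 bp) and Klf3 (6236 bp). All 9 stayed at or above 5 kb in both pools, against 67.0% in pool D over all genes in broad domains. The SOX and related factors had 7 of 28 (25%), led by Sox2 of neural stem cells and glia (9819 bp). Nuclear receptors had 10 of 41 (24.4%), forkhead factors 8 of 33 (24.2%) and basic helix-loop-helix factors 18 of 84 (21.4%). The last group included the neuronal differentiation factors Neurod1, Neurod2 and Neurod6 and the inhibitory Id2, Id3 and Id4. Zinc finger factors with developmental names, such as Bcl11b, Zbtb20 and the Zic genes, had 26 of 130 (20.0%), and homeobox factors 16 of 103 (15.5%). Leucine zipper factors had 6 of 48 (12.5%). Zinc finger genes with only a number in their name had 9 of 350 (2.57%), below the background of 6.94%. Zfp36l1 and Zfp36l2 among these 9 bind messenger RNA and are not transcription factors.

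Leaving aside cell type lists, synaptic adhesion genes had the highest share of any class with at least 15 marked genes. They had 27 of 55 (49.1%), against the background of 6.94%. They were led by Slitrk2 (10308 bp), which promotes synapse formation, Cntnap1 (9922 bp), an axonal contact protein whose domain also holds Plekhh3 and Ccr10, and Lrrc4 (8294 bp), a postsynaptic netrin-G ligand. The family of leucine-rich Lrrtm proteins was present with Lrrtm1, Lrrtm2, Lrrtm3 and Lrrtm4, and neurexins and neuroligins with members such as Nrxn2, Nlgn1 and Nlgn2. In pool D, 22 of the 27 genes (81.5%) had 5 kb or more, against 67.0% of all genes in broad domains. Postsynaptic scaffolds had 9 of 25 (36.0%), among them Dlg4, Baiap2, Cnksr2, Homer1 and Shank2. Genes of vesicle release had 6 of 76 (7.89%), near the background, with Syt1, the fast calcium sensor (7122 bp), Rph3a (6612 bp) and Snap25, a SNARE protein (6429 bp). High shares were thus seen for adhesion and postsynaptic genes and not for the release machinery; the difference between these classes was not tested.

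Receptors and ion channels were also above the background share. Ionotropic glutamate receptor genes had 6 of 18 (33.3%), namely Grin2b, Grin2a, Gria1, Gria2, Grik2 and Grik5. All 6 were at or above 5 kb in both pools, against 67.0% in pool D over all genes in broad domains. Metabotropic glutamate receptors had 5 of 8. GABA receptors had 4 of 16 (25%), led by the GABA-B subunit Gabbr1 (8829 bp). Potassium channels had 19 of 74 (25.7%), among them Kcna6 (9229 bp), of the Shaker type, and Kcnn2 (8790 bp), of the calcium-activated type. Sodium and calcium channels had 10 of 33 (30.3%), led by Cacng8 and the pore subunits Cacna1c (6548 bp) and Cacna1e (5846 bp). In pool D only 4 of these 10 genes reached 5 kb, against 67.0% of all genes in broad domains, so this class stood near the threshold.

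Guidance, adhesion and signalling classes followed. Ephrins and Eph receptors had 7 of 22 (31.8%), led by Epha4 (16579 bp), a receptor of growth cones and dendritic spines. Epha4 spanned 17232 bp in pool C and 7513 bp in pool D, and Epha7 14691 bp in pool C and 13418 bp in pool D. The pools thus disagreed on the first receptor and were close on the second. Cadherins had 17 of 63 (27.0%) with Fat4, Pcdh9 (10595 bp) and Pcdh19 (10277 bp) in front. Semaphorins, plexins and neuropilins had 6 of 29 (20.7%), and the Slit, Robo, netrin and Unc5 group 4 of 18 (22.2%). Of these last 4, 1 was at or above 5 kb in pool D, against 67.0% of all genes in broad domains. Calmodulins, CaM kinases and calcineurin subunits had 11 of 26 (42.3%), among them Ppp3ca, Camk2a, Camk2b and all 3 calmodulin genes. Regulators of small GTPases had 20 of 95 (21.1%), but the small GTPases themselves 4 of 113 (3.54%). Growth factor signalling had 14 of 66 (21.2%), with the receptors Ntrk2, Ntrk3 and Fgfr2 and the ligands Bdnf and Fgf9. Cytoskeletal genes had 21 of 104 (20.2%), chromatin regulators 23 of 176 (13.1%) and RNA-binding proteins 24 of 207 (11.6%). Kmt2a, Kmt2d and Setd1b, enzymes that write H3K4 methylation, were among the chromatin regulators.

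Ribosomal, mitochondrial and proteasome genes were below the background, and the remaining classes stood above it or near it. Cytosolic ribosomal proteins had 3 of 77 (3.90%), mitochondrial ribosomal proteins 1 of 78 (1.28%), oxidative phosphorylation 1 of 89 (1.12%) and the proteasome 2 of 46 (4.35%). All 7 of these genes shared their domain with another coding gene: Rps2 and Ndufb10, for example, lay in the same domain of 5584 bp. Above the background were Notch pathway genes with 5 of 24 (20.8%) and transcription factors of other families with 24 of 150 (16%). So were protein phosphatases with 16 of 119 (13.4%), Wnt pathway genes with 7 of 58 (12.1%) and cyclic nucleotide enzymes with 4 of 34 (11.8%). Several signalling classes were near the background. Protein kinases A and C with MAP kinases had 5 of 66 (7.58%) and G protein subunits and their regulators 3 of 42 (7.14%). Interleukins and chemokines with their receptors had 3 of 43 (6.98%) and the TGF-beta and BMP pathway 3 of 44 (6.82%). Solute carriers had 16 of 266 (6.02%) and ubiquitin ligases and adaptors 26 of 360 (7.22%). Histone cluster genes had 10 of 61 (16.4%), but these 10 lay in 4 domains, and 1 domain of 7028 bp held 5 of them. No cytochrome P450 gene was broad among 23 marked, and no keratin or claudin among 12.

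**Figure D2:**
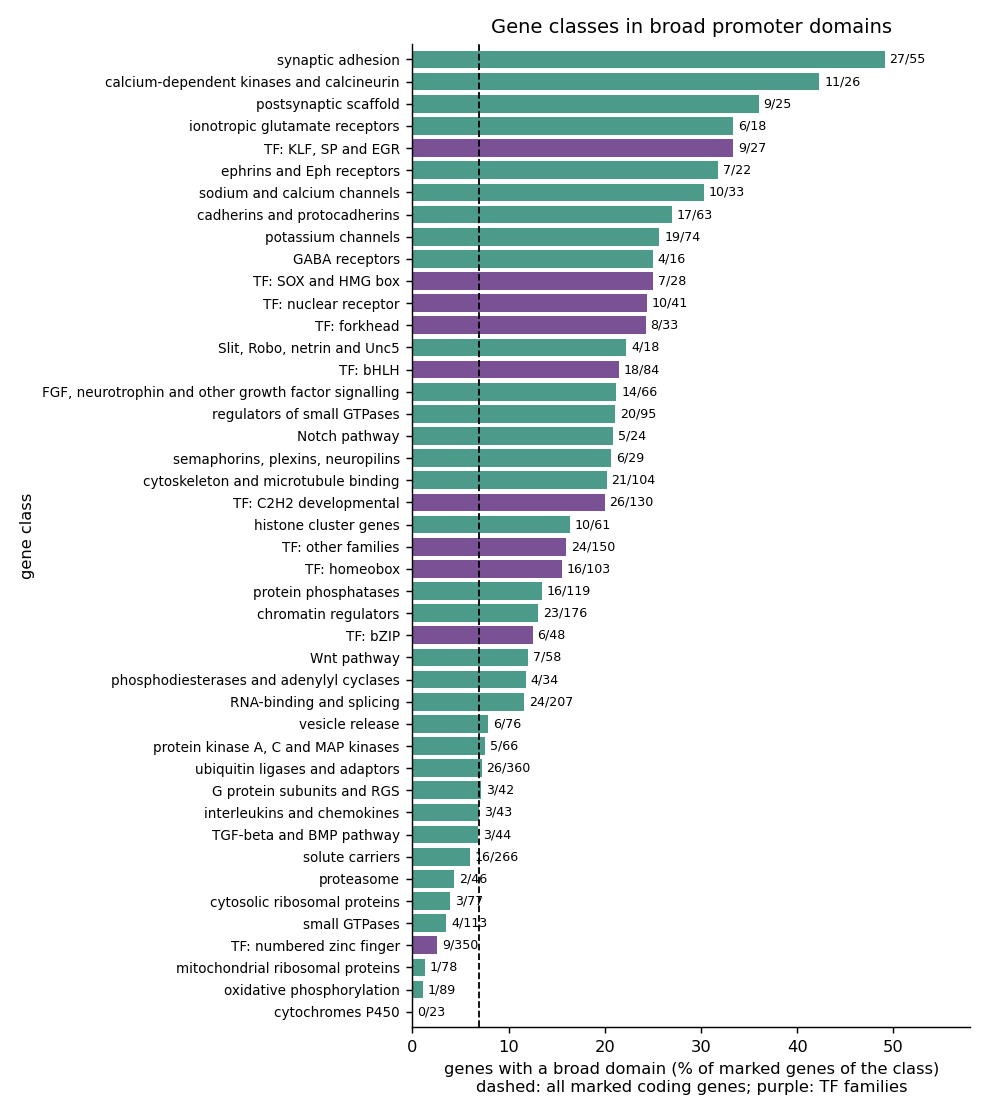
Share of marked genes with a broad promoter domain (percent), for gene classes with at least 15 marked genes. Cell type, immediate early and housekeeping lists and transcription factors as a whole are left out. Counts are printed at the bars. The dashed line at 6.94% is the share over all marked genes, and transcription factor families are purple. Among the classes shown synaptic adhesion had the highest share at 49.1%.

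Marker lists of the cell types of the tissue were represented unequally. The lists were chosen with earlier results of these data known, so their shares are a description and not an independent comparison of cell types. Of excitatory neuron markers 18 of 20 (90.0%) were broad, and of astrocyte markers 9 of 20 (45%). The 18 include Grin2a, Grin2b, Gria1, Gria2, Camk2a and Camk2b, which were also counted in the glutamate receptor and CaM kinase classes. Whether the mark at these genes was confined to excitatory neurons was not tested. Markers of hippocampal fields had 7 of 20 (35.0%), interneurons 5 of 21 (23.8%), oligodendrocytes 5 of 20 (25%), endothelium 3 of 17 (17.6%), oligodendrocyte precursors 2 of 13 (15.4%) and mural and meningeal cells 2 of 14 (14.3%). None of 8 marked ependymal genes was broad. The microglial list had 2 of 9, but these were Mef2c and Sall1, which neurons and progenitors also express, while Csf1r, P2ry12 and Tmem119 were marked and not broad. Of the hippocampal field genes, Prox1 of the dentate gyrus, Zbtb20 and Meis2 had broad domains, while Calb1, Wfs1 and Fibcd1 did not. Immediate early genes had 11 of 25 (44.0%), among them Egr1, Egr3, Nr4a1, Bdnf and Homer1, but Fos, Arc, Npas4 and Junb were not broad. The housekeeping list had 3 of 25 (12%), and Actb, Gapdh and Tbp were outside. Lists overlap in some genes, such as Olig2.

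The domains were reached by both pools but were wider in pool C. All 890 met a domain in each pool list. Their median breadth was 6548.5 bp in pool C and 5435 bp in pool D. In pool C, 884 (99.3%) were 5 kb or more, and in pool D 593 (66.6%); over all promoter domains these shares were 9.14% in pool C and 4.28% in pool D. All 593 of pool D were also 5 kb or more in pool C, 291 were so in pool C alone, none in pool D alone, and 6 in neither. The rule chose on breadth from the same reads, so these counts describe the lists and are not a test.

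The pool difference was alike in direction and typical size in broad and other promoter domains. Broad domains were wider in pool C in 875 of 890 cases (98.3%), against 96.6% of the other promoter domains and 96.8% of all. The median log2 ratio of breadth in pool C over pool D was 0.24 in broad domains and 0.24 in the others. The tail was somewhat heavier: 174 broad domains (19.6%) were more than 1.5 times wider in pool C, against 14.1% of the others, and none was so in pool D. Across the 890 domains the breadths in the pools had a Spearman rho of 0.67, and their logarithms a Pearson r of 0.68; the points share the selection on breadth and the caller. In bases, the extra width lay mainly downstream, as did the domains themselves. The downstream edge of the mark lay a median of 573 bp farther out in pool C than in pool D, and the upstream edge 131 bp farther out. In the other promoter domains these distances were 200 and 86 bp. The pool D edges of broad domains themselves lay at medians of 4325 bp downstream and 1207 bp upstream. The distances between the pools were not scaled to this reach.

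Agreement on the 5 kb limit followed breadth in the replicated list. This rise is partly built in, since a broader domain must narrow more in pool D to fall below a fixed limit. Of the 249 domains from 5000 to 5500 bp, 76 (30.5%) were 5 kb or more in pool D. The share was 67.7% of 167 domains from 5500 to 6000 bp, 76.5% of 230 from 6000 to 7000 bp, 89.1% of 101 from 7000 to 8000 bp, 95.4% of 87 from 8000 to 10000 bp and 98.2% of 56 above. The single exception above 10000 bp was Sema7a. Of the 297 domains under 5 kb in pool D, 197 were still 4 kb or more there, 30 were under 3 kb, and 78 were split into several pool D domains. Splitting rather than loss was frequent among the broadest: 19 of the 56 domains above 10000 bp lay in more than 1 pool D domain, against 15 of 249 in the narrowest bin. Domains of 5 kb or more called in the pool lists themselves numbered 1238 in pool C and 593 in pool D. Of these, 884 in pool C (71.4%) and 592 in pool D (99.8%) met a member.

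**Figure D3:**
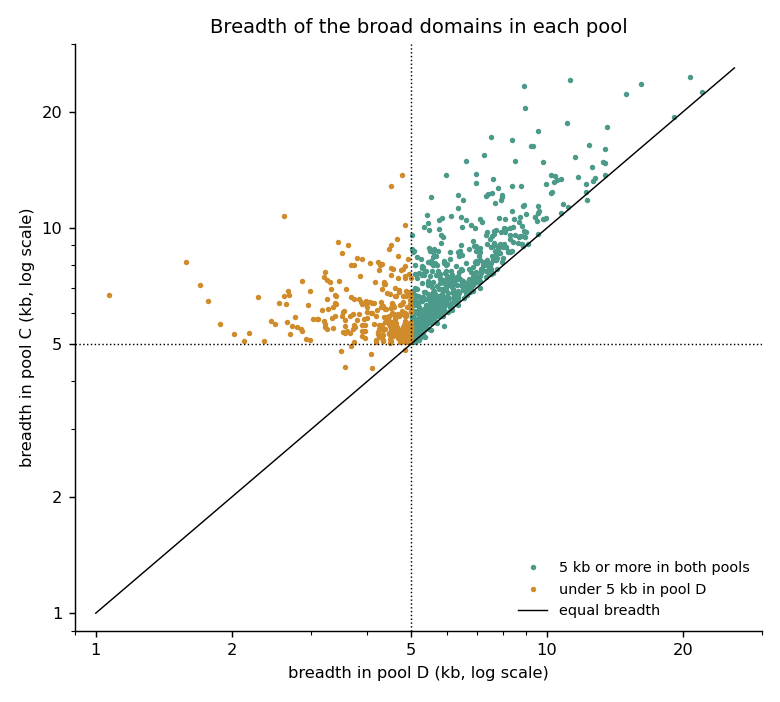
Breadth of each of the 890 broad domains in pool C (vertical axis) and pool D (horizontal axis), both in kb on log scales. Points above the solid line were wider in pool C, as were 875 domains, and the 297 orange points were under 5 kb in pool D (dotted lines at 5 kb).

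The domains with the highest ratio of pool C to pool D were led by genes of vessels and glia among others. Each domain named here for a high ratio was a member although it was under 5 kb in pool D. Slco1a4, an organic anion transporter of the blood-brain barrier (chr6:141849597-141856233), had 6689 bp in pool C and 1069 bp in pool D, a ratio of 6.26. Adgrg1, an adhesion G protein-coupled receptor, had 8161 bp in pool C and 1588 bp in pool D. Mbp, myelin basic protein, had 7096 bp in pool C and 1699 bp in pool D. These breadths are the longest piece in each pool. The pool C list covered each of the 3 domains in full with 1 piece. The pool D list covered 35.8% of the Slco1a4 domain with 3 pieces, 36.3% of the Adgrg1 domain with 2 and 27.9% of the Mbp domain with 1. Hic1, a transcriptional repressor, followed with 10756 bp in pool C and 2617 bp in pool D, and Rara, a retinoic acid receptor, with 6448 bp in pool C and 1771 bp in pool D. The lowest ratios were close to equality. Slc41a1, a magnesium transporter, had 5574 bp in pool C and 5895 bp in pool D. Zbtb20 had 11810 bp in pool C and 12261 bp in pool D, and Neto1, a glutamate receptor auxiliary protein, 5207 bp in pool C and 5365 bp in pool D. The others were Pigs with Aldoc (ratio 0.98) and B3gat1, an enzyme of a neural carbohydrate epitope (ratio 0.98).

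The ratio also differed between the marker lists. Over all genes in broad domains the median ratio of pool C to pool D breadth over the domains was 1.18, and 658 of 982 genes (67.0%) were 5 kb or more in pool D. For excitatory neuron markers the median ratio was 1.19 and 14 of 18 genes reached 5 kb in pool D, among them Grin2b, with 16004 bp in pool C and 13468 bp in pool D. Hippocampal field markers had a median ratio of 1.32, and all 7 reached 5 kb in pool D. Astrocyte markers had a median ratio of 1.23, interneuron markers one of 1.19, and the 2 microglial markers, Mef2c and Sall1, one of 1.52. Oligodendrocyte markers had a median ratio of 1.55 and 2 of 5 genes at 5 kb in pool D, with Olig2 at 8591 bp in pool C and 3520 bp in pool D. Ptprz1 of oligodendrocyte precursors had 5413 bp in pool C and 2866 bp in pool D. The endothelial markers Egfl7, Slco1a4 and Flt1 had ratios of 1.52, 6.26 and 2.34, and the mural and meningeal Foxc1 and Zic1 ratios of 2.26 and 1.63. Breadth is that of the longest piece, and the pool D list held 3 pieces at Slco1a4 and 2 each at Flt1, Olig2 and Ptprz1, so these ratios also hold the splitting of a domain. A pool domain that runs past the member is counted at its full length. Foxc1, 7377 bp in the replicated list, had 14932 bp in pool C and 6610 bp in pool D. Sall1, 6453 bp there, had 10763 bp in pool C and 6110 bp in pool D. In all its pieces pool D covered 44.6% of the Flt1 domain, 71.5% of the Olig2 domain and 63.5% of the Ptprz1 domain. Genes entered these lists of ratios through breadth in the replicated list. Slco1a4, Flt1, Olig2, Mbp, Ptprz1 and Zic1, among others, were 5 kb or more in pool C only. A high ratio at such genes is therefore partly built in by the rule, and marked genes without a broad domain were not compared. The oligodendrocyte, microglial and vessel lists hold 2 to 5 broad genes each, with 1 pool a side, and the part of tissue composition and of depth in these ratios was not tested.

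**Figure D4:**
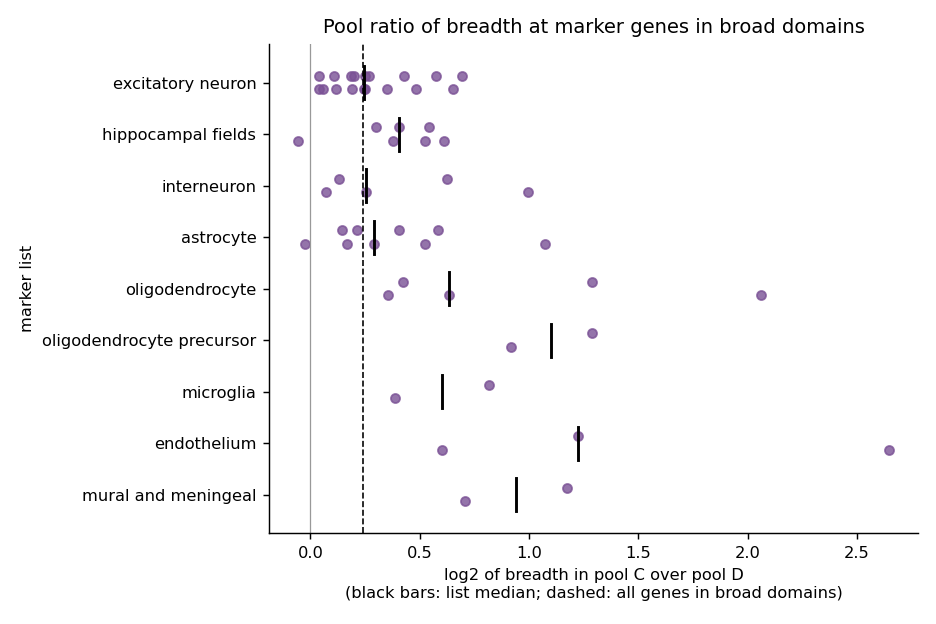
Log2 ratio of breadth in pool C over pool D for marker genes with a broad domain, 1 point per gene, by marker list. Black bars are list medians and the dashed line is the median over all genes in broad domains (0.24). All 3 endothelial and both mural or meningeal genes lie to its right. Genes entered through breadth in the replicated list, and several were 5 kb or more in pool C only, so high ratios are partly built in.

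Of the 6 domains below 5 kb in both pools, the broadest 5 were led by Mylip, Hmgcs1, Cntnap5a, Ankrd28 and Kcng3. Mylip, a ubiquitin ligase of the low-density lipoprotein receptor, was 5359 bp in the replicated list, with 4353 bp in pool C and 3566 bp in pool D. Hmgcs1, an enzyme of cholesterol synthesis, had 4784 bp in pool C and 3487 bp in pool D. The potassium channel modifier Kcng3 had 4813 bp in pool C and 4834 bp in pool D, nearly equal.

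The domains lay mainly downstream of the start site. The median share of bases downstream was 79.4%, against 66.6% in the other promoter domains, and 785 domains (88.2%) lay more than 50% downstream, against 83.1% of the others. The median reach of broad domains was 4737.5 bp downstream and 1295 bp upstream, against 1262.5 bp downstream and 662 bp upstream in the others. Among domains with 1 coding gene the downstream share was 81.2% in broad domains and 67.9% in the others. The highest shares were at Gpr37l1, a receptor of astrocytes, and Arhgef26, a guanine nucleotide exchange factor (100% each), and Mbp (99.8%). The lowest were at Pcnx3 (9.59%), Traf7 (14%) and Ppt2 (14%), whose domains each hold a second coding gene. At 4500 bp downstream, 62.4% of broad domains had a peak in pool C and 37.4% in pool D, against 3.22% of other promoter domains in pool C and 1.57% in pool D. At 3000 bp upstream the shares were 17.0% of broad domains in pool C and 12.02% in pool D, against 3.25% of other promoter domains in pool C and 2.22% in pool D.

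**Figure D5:**
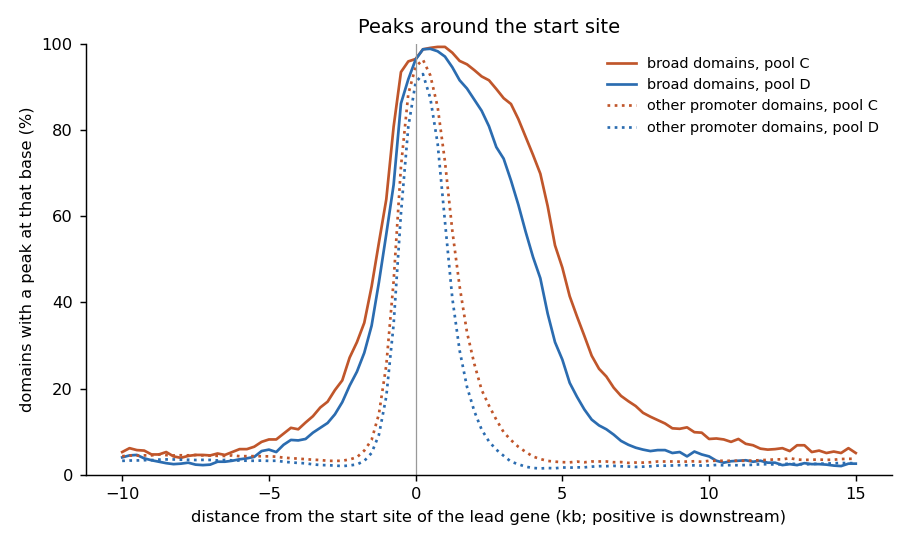
Share of domains (percent) with a peak at each distance from the start site of the lead gene, in kb with positive values downstream. Solid lines are the 890 broad domains and dotted lines the other 13008 promoter domains, each in pool C and pool D; broad domains extend mostly to the right of 0, farther in pool C.

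CpG islands took up a smaller share of broad domains than of other promoter domains. A CpG island base here lies in a 200 bp window with a GC content of at least 50% and an observed-to-expected CpG ratio of at least 0.6. Island bases made up a median of 30.1% of a broad domain, against 49.6% of another promoter domain. In absolute terms broad domains held more, with a median of 1938 island bases, against 986 in other promoter domains. The median GC content was 51.2% in broad domains and 53.9% in other promoter domains. The lowest island shares were 0% at St18, a zinc finger factor, Ackr3, a chemokine receptor, and Gpr37l1, and the highest 94.8% at Efna5, an ephrin ligand, 93.8% at Hic1 and 89.4% at Pdgfa, a growth factor of oligodendrocyte precursors. Across the domains breadth and island length had a Spearman rho of 0.21 (n = 890), and breadth and the percentile of peak signal within the list one of 0.02.

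Domains led by transcription factors differed in make-up from those led by channel, receptor, adhesion and guidance genes. Of promoter domains led by the factors, 128 of 1066 (12%) were broad, against 111 of 413 (26.9%) for the second group and 651 of 12419 (5.24%) for all remaining genes. Island bases made up a median of 46.8% of the factors' broad domains, 27.1% of those of the second group and 29.4% of the rest. The factors' domains had a median of 3202 island bases, against 1823 in the second group and 1840 in the rest. They reached a median of 1679.5 bp upstream, against 1269 bp in the second group and 1228 bp in the rest. Lead genes had a median length of 26612.5 bp in the first group, 125439 bp in the second and 42045 bp in the rest. In promoter domains under 5 kb these medians were 22036.5, 111505 and 28919.5 bp, in the same order of groups. Island shares there were 54.4% for the factors, 47.2% for the second group and 49.4% for the rest. The order of the groups in gene length and island share was thus not particular to broad domains. Of the factors 25 (19.5%) were wholly inside their domain, against 3 (2.70%) of the second group and 48 (7.37%) of the rest. The share at 5 kb or more in pool D was 77.3% for the factors, 73.9% for the second group and 63.3% for the rest. Domains of 10 kb or more made up 14.8% of the factors' broad domains, 13.5% of those of the second group and 3.38% of the rest. These differences were not tested.

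Length and gene content differed from other promoter domains as well. Lead genes of broad domains had a median length of 46153 bp, against 28747.5 bp for other promoter domains. Of the broad domains 76 (8.54%) held their lead gene wholly, against 1.24% of other promoter domains. A start site of a long noncoding RNA lay in 221 broad domains (24.8%), against 10.1% of other promoter domains. A microRNA gene lay in 26 broad domains (2.92%), against 1.09% of other promoter domains. Both shares, and that of lead genes held wholly, were left uncorrected for domain length, which is greater in broad domains by the rule. More than 1 coding gene was found in 96 broad domains (10.8%), against 10.01% of other promoter domains. Of the 88 with 2 coding genes, 56 were divergent, 16 convergent and 16 tandem. The domains with most coding genes were a histone cluster with 5 (chr13:23570222-23577249), the Cntnap1, Ccr10 and Plekhh3 domain and that of Aloxe3, Hes7 and 9130213A22Rik with 3 each. Coding genes with more than 1 broad domain numbered 12. Tcf4 and Gse1, a transcriptional coregulator, had 3, and Abr, Arpp21, Auts2, E130114P18Rik, Foxp1, Kalrn, Olfm1, Pik3r1, Trim2 and Tsc22d1 had 2. The domains of Arpp21, a cAMP-regulated phosphoprotein, were 8698 and 6373 bp, and those of Olfm1, a secreted olfactomedin, 9093 and 8084 bp.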

How the data were processed

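H3K4me3 ChIP-seq peak lists were analysed as deposited on mm10: replicated peaks, peaks of pool C, of pool D and of both pools together. The peak caller is not given in the sources used here. Its settings are likewise unstated, and the technical libraries of a pool share 1 alignment, per the labels' file notes. Each peak has a display score, a signal value, a −log10 q and a summit offset, all deposited by the authors. The signal value ranked peaks within a list, the −log10 q served as an alternative filter, and the deposited score was not used. Sequencing depth is unknown and no interval was given; 0 per-sample columns were left unused.

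Peaks within 1 kb were joined. Domains within 1 kb of any start site of a protein-coding transcript (GENCODE M21) were promoter domains. The lead gene of a domain is the coding gene starting closest to its strongest peak's summit. Breadth in a pool is the longest joined domain of that pool's list sharing at least 1 base with the domain. Sequence came from RefSeq GRCm38, the mm10 build, read with pysam 0.24.0 and samtools 1.23.1; tables used pandas 2.3.3 and numpy 2.4.6 in python 3.11.15, and figures matplotlib 3.10.9. The joining, the assignment of genes and the island search were tested on simulated domains. No test of significance was run: each pool gave 1 list, and breadth chose the domains.

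The domains and gene lists were chosen with earlier results of these data known. Gene classes are naming patterns or lists. Named genes are ranks 21 to 40, the 3 broadest of each class, the extremes of pool ratio, peak number, gene number, island share and downstream share, those at the 5 kb threshold, and the broadest under 5 kb in both pools; other class members were named as examples after their values were seen. A few genes and promoter sequences taken by the rules are not reported here. Alternatives were other gaps, windows, lists, thresholds, start site sets, overlaps and island definitions.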

Additional observations from a re-analysis of the deposited data

How the results depend on the processing

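Of 116 alternative values for 8 results, 98 stayed within 1.5 times for counts, or within 1 SD over the pools' own lists for medians and shares. Only the median log2 ratio of pool breadths could change sign, and it did not. The pool C and pool D lists set that SD, so for medians and shares their own values were weak alternatives. The number of domains (890) was 529 with no gap closed, 1363 with gaps of 3 kb closed, 593 from the pool D list alone, 1744 at 4 kb or more and 474 at 6 kb or more. The number of genes (983) was 577 with no gap closed, 1684 with gaps of 3 kb closed, 1924 at 4 kb and 528 at 6 kb. The number at the length limit in both pools (593) was 284 with no gap closed, 962 with gaps of 3 kb, 1249 at 4 kb and 287 at 6 kb. Median breadth was 5847 bp with no gap closed and 6386 bp with gaps of 3 kb. The share of transcription factor genes (13.5%) was 10.8% at 4 kb and 16.1% at 6 kb. The downstream share was 83.6% when only the 5′ end of each gene was used. Among 172 named domains, breadth moved by over 1.5 times in 69 with no gap closed, 10 in pool C and 31 in pool D. The cause was not tested. No library could be left out, since the technical libraries of a pool share 1 list. No paired analysis was possible because the results come from no test and each pool gave 1 list. Unknown depth limits how far a narrower domain in pool D can be read as a difference between pools.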

Other observations

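Broad domains were unevenly spread over the chromosomes. Chromosome X held 11 among 478 promoter domains (2.30%), chromosome Y none among 4, and chromosome 3 had the highest share (9.26%). These were male mice, and their single X chromosome was not corrected for. Broad domains seldom neighboured each other: 6 of 890 had another within 10 kb and 49 within 50 kb. Transcription factor genes made up 6.99% of the genes in domains from 5000 to 5500 bp, 16.5% from 5500 to 6000 bp, 12.4% from 6000 to 7000 bp, 13.0% from 7000 to 8000 bp, 19.4% from 8000 to 10000 bp and 33.3% from 10000 bp up. The share did not rise in every step.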
